A study of Mus musculus with 6 samples.

Results

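The genes described here are the chemokines, secreted proteins that guide the migration of blood cells, and the receptors that bind them. Their transcripts were read from mouse marrow cells that carry c-Kit. A gene was a member when its Ensembl identifier carried a mouse symbol of the Ccl, Cxcl, Xcl, Ccr or Cxcr series, or was Cx3cl1, Cx3cr1 or one of the atypical receptors Ackr1 to Ackr4. By this rule 46 of the 20097 listed genes were members, 26 ligands and 20 receptors. The files listed no row for 13 further symbols of the same form, among them Ccl19, Ccl20, Ccr4 and Cxcl5, and these were not analysed here.

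The data were 6 poly-A RNA libraries, 3 labelled WT (titled WT control) and 3 labelled Runx1 KO, all from bone marrow cells positive for c-Kit, the receptor encoded by Kit that marks blood stem and progenitor cells. RUNX1 is a transcription factor that blood stem cells need to form. How Runx1 was disrupted, in which cells and when, and the strain, age and sex of the mice are not given in the sources used here, and nothing there says whether the 3 libraries of a group came from separate animals, so that p-values measure only the spread between these samples. Recovered reads ranged from 23297526 to 26793380 per library, with a floor of 3 reads at 2.88 to 3.14 normalised reads, the unit used below. As a check of the labels, Runx1 itself had 3031, 2799 and 3497 normalised reads in WT replicates 1 to 3 and 6648, 6720.3 and 5829.9 in Runx1 KO replicates 1 to 3, a log2 change of 1.04 (SE 0.10, limma adjusted p 0.00163). The transcript of the targeted gene thus went against what the label Runx1 KO would give if it were lost, and every direction below runs between libraries as labelled. Of the markers of c-Kit-positive progenitors, Kit had 7979 to 8471 normalised reads under the label WT and 11507 to 13684 under the label Runx1 KO (log2 change 0.60, SE 0.07, adjusted p 0.00346), and Cd34 and Myb also rose.

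Chemokines act through receptors of the G protein-coupled family on the surface of leukocytes, and most ligands are shared between several receptors. The atypical receptors bind chemokines without the usual G protein signal and serve to clear or transport them. In bone marrow the ligand CXCL12, made mainly by stromal cells, holds stem and progenitor cells that carry CXCR4 in place, while ligands of CXCR2 favour the release of neutrophils and CCR2 and its ligands the release of monocytes.

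Of the 46 members, 37 had enough reads to be tested, 21 ligands and 16 receptors. Among the ligands, 6 rose in the libraries labelled Runx1 KO and 1 fell, whereas among the receptors 6 fell and 0 rose (limma, adjusted p under 0.05 over all genes tested). The ligands that rose were Ccl24, Ccl8, Ccl12, Cxcl10, Ccl25 and Ccl9, and the one that fell was Cxcl12. The receptors that fell were Cxcr4, Ccr7, Cxcr5, Cx3cr1, Ccr1 and the atypical receptor Ackr1. Over all 15410 genes tested, 21.9% passed the threshold, 10.6% as higher and 11.3% as lower, so that 28.6% of tested ligands stood against 10.6% for rises and 37.5% of tested receptors against 11.3% for falls. The median log2 change was 0.31 for the ligands, -1.48 for the receptors and -0.004 over all genes tested. The groups did not overlap in 15 of the 37 tested members, compared with 43.3% of all tested genes. Among the ligands 7 of 21 lay wholly above the libraries labelled WT, against 21.4% of all genes, and among the receptors 7 of 16 lay wholly below, against 21.9%. These counts describe the members that passed the filter and not all 46, since a gene expressed in a single group passes through that group.

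**Figure D1:**
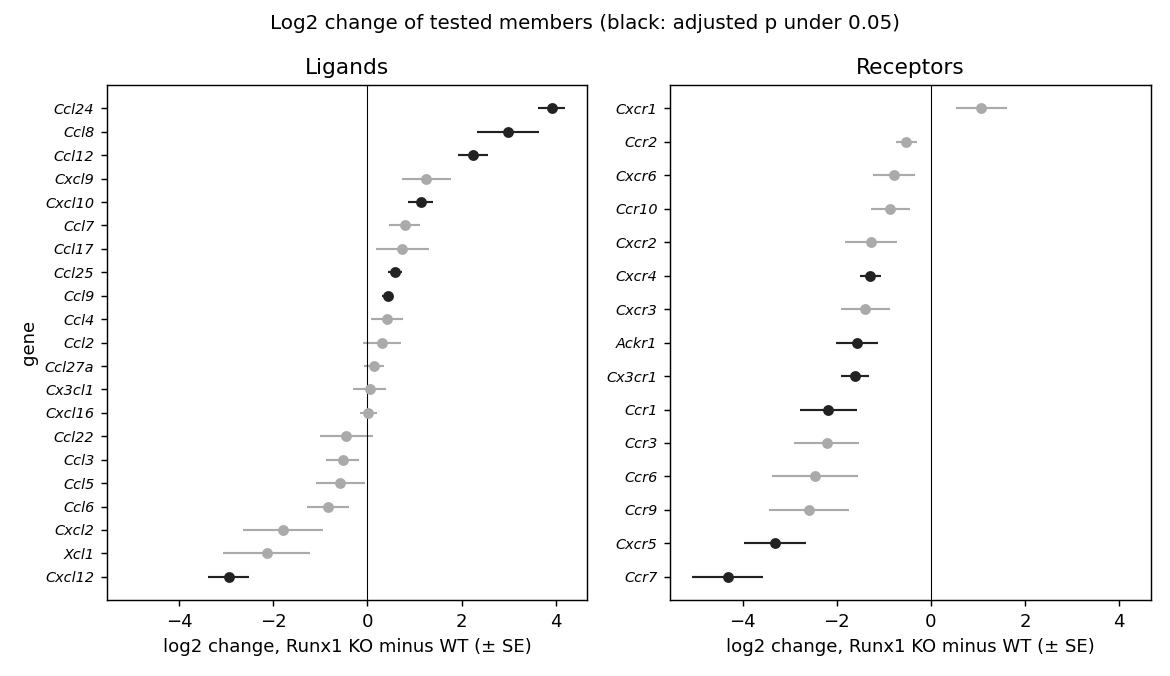
Log2 change, Runx1 KO minus WT (x axis) for the 21 tested ligands (left) and 15 tested receptors (right), each point the limma estimate over 3 libraries against 3 and each bar its SE. Black points passed an adjusted p of 0.05, grey points did not, and 14 of the 15 receptors drawn lie left of 0.

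Other tools, scalings, pseudocounts and filters changed few calls, and the replicate number as a block changed more. Of the 13, 12 were kept in edgeR, where 21.2% of all genes passed, in DESeq2 (25.4%), with library totals as the scaling (24.4%) and with a pseudocount of 0.5 (21.7%), and all 13 with TMM scaling (22.1%) or a pseudocount of 5 (22.2%). Library totals moved the balance over all genes from 1631 higher and 1739 lower to 2383 higher and 1372 lower, while the ligands stayed at 6 higher and 1 lower and the receptors went from 6 lower to 5. With no filter on low values (16.8% of 20097 genes) Ackr1 was lost and Cxcl11 and Cxcl14 were gained, and with a mean CPM of at least 1 (23.7%) Ackr1 and Ccl12 were not tested. The replicate number as a block added Ccl6, Ccr3, Cxcl2, Cxcl9 and Cxcr2 in limma (24.9%) and in edgeR (23.9%). Ccl25 was lost with the block in edgeR.

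Leaving out single libraries changed more calls. Only 5 of the 13 calls were kept whichever of the 6 libraries was left out: Ccl24, Ccl12, Cxcl12, Ccr7 and Cxcr4. Without Runx1 KO replicate 2 the count was 3 ligands and 2 receptors (8.75% of all genes passed), and without Runx1 KO replicate 1 it was 8 ligands and 11 receptors (23%). Leaving out both libraries numbered 1, an alternative added after the data were examined because both stood apart in several members, gave 2 ligands higher and 6 lower, with 1 receptor higher and 11 lower (24.3%). Without WT replicate 3 there were 4 ligands and 4 receptors (15.1%), without WT replicate 2 there were 5 and 4 (13.9%), without WT replicate 1 there were 5 and 6 (16.2%), and without Runx1 KO replicate 3 there were 4 and 6 (11.3%).

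Among the receptors, Cxcr4 (ENSMUSG00000045382, chromosome 1, 128588199 to 128592293, minus strand, GRCm38), the receptor of CXCL12, came first. It had the highest level of all receptors per kilobase of exon in both groups, 3771 normalised reads per kb under the label WT and 1488 under the label Runx1 KO. Its values were 9649, 5195 and 5608 normalised reads in WT replicates 1 to 3 and 2868, 2669.9 and 2534 in Runx1 KO replicates 1 to 3. The groups did not overlap, and WT replicate 1 was the highest library while the 3 libraries labelled Runx1 KO lay close together. The level was 2.53-fold lower (mean 6817 ± 2461 against 2691 ± 168, SD, n = 3), a log2 change of -1.29 (SE 0.22, limma adjusted p 0.0091). Without WT replicate 1 the log2 change was -1.01, and the adjusted p over the 6 fits that left out a library was at most 0.041.

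Ccr7 (ENSMUSG00000037944, chromosome 11, 99144196 to 99155077, minus strand), which directs lymphocytes and dendritic cells to lymphoid organs, showed the largest fall of the tested members. It had 1167, 207 and 302 normalised reads in WT replicates 1 to 3 and 46.0, 16.8 and 9.95 in Runx1 KO replicates 1 to 3. The lowest library labelled WT was above the highest labelled Runx1 KO, although WT replicate 1 held several times the reads of the other WT libraries. The mean was 23-fold lower and the log2 change -4.32 (SE 0.75, limma adjusted p 0.0093). Cxcr5 (ENSMUSG00000047880, chromosome 9, 44511787 to 44561877, minus strand), the receptor that brings B cells into follicles, had 301, 74.7 and 116 normalised reads under the label WT and 30.3, 9.91 and 6.96 under the label Runx1 KO. The order of the libraries was the same as for Ccr7, with WT replicate 1 highest and no overlap between groups. Its log2 change was -3.31 (SE 0.65, limma adjusted p 0.0145), and the call was lost without Runx1 KO replicate 2 (adjusted p 0.0589). Cxcr5 overlaps Bcl9l on the opposite strand, whose log2 change was 0.27. Markers of B cells moved with both receptors: 7 of the 9 B-cell markers fell, their summed level was 6911 to 28495 normalised reads under the label WT with the highest value in WT replicate 1 and 973 to 2702 under the label Runx1 KO, and none was at 0 in a whole group. The part of these markers in the falls of Ccr7 and Cxcr5 was not tested, and in bulk RNA fewer cells of a type and less RNA per cell cannot be told apart.

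Cx3cr1, the receptor of fractalkine on monocytes and their progenitors, had 2171, 1823 and 3079 normalised reads in WT replicates 1 to 3 and 1188, 591 and 614 in Runx1 KO replicates 1 to 3. No library labelled Runx1 KO reached the lowest library labelled WT, and Runx1 KO replicate 1 was the highest of its group. The level was 2.96-fold lower, a log2 change of -1.61 (SE 0.30, limma adjusted p 0.0124), and without Runx1 KO replicate 2 the adjusted p was 0.05003. The annotation of Cx3cr1 overlaps those of Csrnp1 and Gorasp1 on the same strand. Csrnp1 had means of 1878 and 1032 normalised reads (log2 change -0.89, SE 0.35, limma adjusted p 0.114) and Gorasp1 of 1001 and 1222 (log2 change 0.29, SE 0.09, adjusted p 0.0616), and their part in the value of Cx3cr1 was not tested. Ccr1, a receptor of inflammatory CC ligands on myeloid cells, had 2544, 560.0 and 566 normalised reads under the label WT and 326, 166 and 158 under the label Runx1 KO. It fell by a log2 change of -2.18 (SE 0.60, limma adjusted p 0.0428), with its groups apart and WT replicate 1 far above the rest. Without WT replicate 1 the log2 change of Ccr1 was -1.45 (adjusted p 0.0318). The call of Ccr1 was lost without WT replicate 2 (0.057), WT replicate 3 (0.0539), Runx1 KO replicate 2 (0.132) and Runx1 KO replicate 3 (0.128). Of the 6 monocyte markers, 1 rose and 0 fell, and their summed level was 27027 to 35501 normalised reads under the label WT and 35086 to 45227 under the label Runx1 KO. Any part of monocytes in the values of Cx3cr1 and Ccr1 was not tested.

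Ackr1, the atypical receptor also known as the Duffy antigen of red cells and venules, was weakly expressed. It had 36.6, 18.2 and 18.2 normalised reads under the label WT and 7.32, 3.96 and 11.9 under the label Runx1 KO, with no overlap. The log2 change of -1.57 (SE 0.45) sat just past the threshold (limma adjusted p 0.049). It did not pass in edgeR (0.0515) or DESeq2 (0.0746), and its call held without Runx1 KO replicate 3 (0.049) but in none of the 5 others that leave a library out, where the adjusted p ran from 0.0795 to 0.139. The annotation of Ackr1 overlaps that of Cadm3 on the same strand, and Cadm3 also fell, from a mean of 82.4 to 21.1 normalised reads (log2 change -2.01, SE 0.41, limma adjusted p 0.016). Of the 7 erythroid markers, 4 fell and 0 rose, with summed levels of 10158 to 17051 normalised reads under the label WT and 4765 to 6858 under the label Runx1 KO. The list was not uniform, since 2 of its markers had a positive log2 change without passing and 5 a negative one. In 1 marker every library labelled Runx1 KO lay above every library labelled WT. The part of Cadm3 or of erythroid cells in the value of Ackr1 was not tested.

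**Figure D2:**
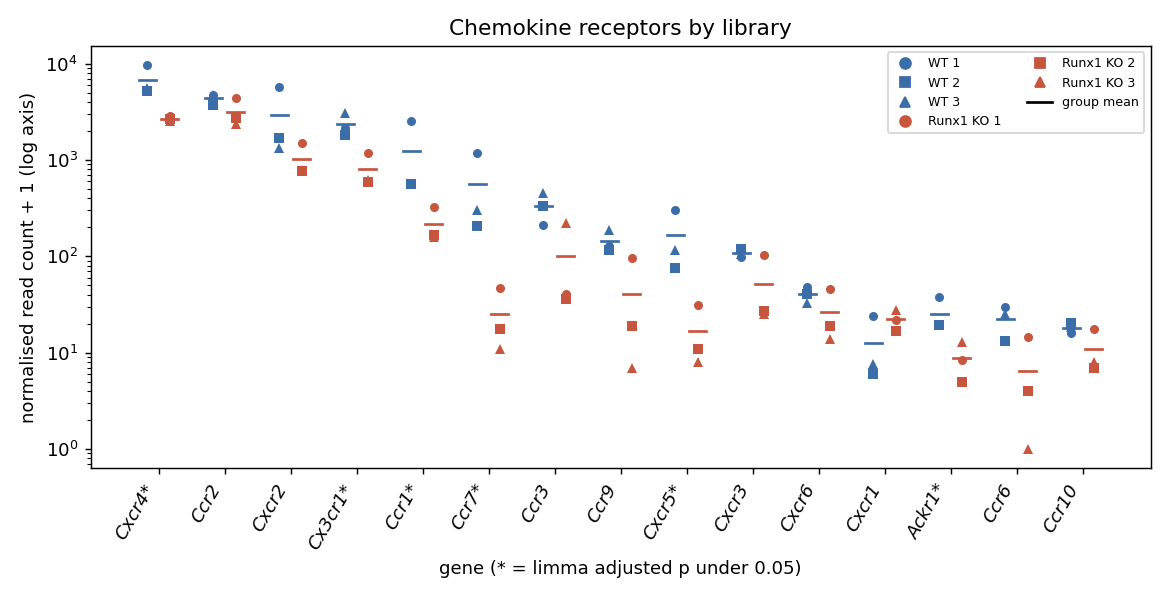
Normalised read count + 1 (y axis, log scale) of 15 tested receptors in each library, blue for libraries labelled WT and red for those labelled Runx1 KO, with symbols for replicates 1 to 3 and short lines for the group means. Asterisks mark the 6 receptors past the threshold, and in Ccr9, Cxcr3 and Cxcr6 Runx1 KO replicate 1 sits nearer the WT libraries than the other 2 libraries of its group.

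Promoter sequence was looked up for the receptors and ligands that moved, because the series' title names RUNX1 and GATA2. RefSeq windows on GRCm38.p6 were at hand for 35 of the 46 members, 39 windows in all, and for 10 of the 13 called members; Ccl24, Ccr7 and Cxcr5 had no entry. In the 250 bases before each start, both strands were searched for the RUNX letters TGTGGT and TGCGGT, the GATA letters AGATAA, the interferon-stimulated response element and the NF-kB motif, whose matched letters are capitals in the Cxcl10 window further on. TGTGGT was in 9 of the 39 member windows, compared with 14% of all 32851 promoter windows, and in 2 of the 10 called members, Ccr1 and Cx3cr1. TGCGGT was in 1 member window, that of Cx3cr1, compared with 5.1% of all windows. The receptor windows below show the contrast among genes that fell, with each match in capitals. In Cx3cr1 the capitals are TGCGGT and the reverse complement of TGTGGT, in Ccr1 the reverse complement of TGTGGT, and Cxcr4 holds no searched motif.
Cx3cr1, chr9:120068297-120068546, minus strand: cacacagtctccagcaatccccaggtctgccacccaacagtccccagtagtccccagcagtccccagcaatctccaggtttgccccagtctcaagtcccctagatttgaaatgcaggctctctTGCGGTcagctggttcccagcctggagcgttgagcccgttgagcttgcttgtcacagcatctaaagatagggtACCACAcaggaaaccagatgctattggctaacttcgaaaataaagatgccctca
Ccr1, chr9:123968693-123968942, minus strand: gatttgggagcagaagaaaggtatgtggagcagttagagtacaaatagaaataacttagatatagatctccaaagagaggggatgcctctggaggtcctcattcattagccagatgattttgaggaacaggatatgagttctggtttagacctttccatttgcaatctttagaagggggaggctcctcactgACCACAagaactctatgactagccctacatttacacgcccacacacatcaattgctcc
Cxcr4, chr1:128592300-128592549, minus strand: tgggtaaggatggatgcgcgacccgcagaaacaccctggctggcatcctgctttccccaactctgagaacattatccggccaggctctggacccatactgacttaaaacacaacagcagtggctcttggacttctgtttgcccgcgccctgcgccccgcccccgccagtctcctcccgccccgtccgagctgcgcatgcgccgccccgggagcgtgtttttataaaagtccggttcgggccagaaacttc
These matches are letters in a window, and no binding was measured.

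The other 10 tested receptors did not pass the threshold. Ccr2, the receptor that lets monocytes leave the marrow, was second per kilobase under the label Runx1 KO. It had 4747, 3703 and 4751 normalised reads under the label WT and 4349.5, 2733 and 2363 under the label Runx1 KO, so that the groups overlapped (log2 change -0.52, SE 0.22, limma adjusted p 0.134). Cxcr2, the main neutrophil receptor, had 5761, 1690.2 and 1332 normalised reads against 1501, 765 and 782, and WT replicate 1 carried most of the difference between the means (log2 change -1.28, SE 0.55, adjusted p 0.135). Of the 7 neutrophil markers 6 fell, with summed levels of 167660.5 to 242317 normalised reads under the label WT and 28632 to 85901 under the label Runx1 KO. Whether neutrophils had a part in the value of Cxcr2 was not tested. How the authors' counting treated reads shared by close copies, such as those of Ccl8 and Ccl12, is not stated in the sources used here.

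Several receptors of lymphoid and granulocyte cells had low values in Runx1 KO replicates 2 and 3 alone. Ccr9, a homing receptor of plasmacytoid dendritic cells and gut lymphocytes, had 128, 114 and 185 normalised reads under the label WT and 94.1, 17.8 and 5.97 under the label Runx1 KO (log2 change -2.59, SE 0.85, limma adjusted p 0.0696). Cxcr3, a receptor of activated T cells and NK cells, had 97.9, 119 and 104 normalised reads against 103, 25.8 and 23.9 (log2 change -1.39, SE 0.53, adjusted p 0.101). Runx1 KO replicate 1 was within or next to the WT range in both, and without that library both passed and the number of receptors that fell was 11. In the same library the 7 T-cell markers summed to 954 normalised reads, against 272 and 312 in the other 2 libraries of its group and 859 to 1035 under the label WT. Of these T-cell markers 0 passed the threshold. The 5 plasmacytoid dendritic cell markers summed to 573 normalised reads in Runx1 KO replicate 1, to 76.3 and 63.6 in replicates 2 and 3 and to 1286 to 3592 under the label WT, and 3 of them fell. The part of these cells in the values of Ccr9 and Cxcr3 was not tested.

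Ccr3, the receptor of eotaxins on eosinophils and basophils, showed another pattern. It had 212, 332 and 454 normalised reads under the label WT and 39.8, 34.7 and 223 under the label Runx1 KO, where replicate 3 lay within the WT range (log2 change -2.21, SE 0.69, limma adjusted p 0.0609). Without Runx1 KO replicate 3 it passed. Of the 6 basophil and mast cell markers 4 fell and 0 rose, and of the 6 eosinophil markers 1 fell and 1 rose. Any part of these cells in the value of Ccr3 was not tested. The remaining tested receptors were Ccr6, Ccr10, Cxcr1 and Cxcr6, with group means from 5.52 to 39.2 normalised reads and limma adjusted p values of 0.0968, 0.171, 0.191 and 0.243. Cxcr1, the neighbour and relative of Cxcr2, had a positive log2 change (1.07, SE 0.54), and it passed without WT replicate 1 (log2 change 1.67, adjusted p 0.0312). The untested receptors were Ccr8, Ackr2, Ackr3 and Ackr4, which held at most 26 recovered reads in any library.

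Among the ligands, Ccl24 (ENSMUSG00000004814, chromosome 5, 135569937 to 135573049, minus strand), which encodes an eotaxin that attracts eosinophils through CCR3, rose the most. It had 29.7, 18.2 and 38.4 normalised reads in WT replicates 1 to 3 and 473, 475 and 348 in Runx1 KO replicates 1 to 3, so that every library labelled Runx1 KO was far above every library labelled WT. The mean was 15-fold higher, with a log2 change of 3.91 (SE 0.29, limma adjusted p 9.68e-04). Its receptor gene Ccr3 was not higher in the same libraries, as given above. Per kilobase of exon, Ccl24 was 15th of the 26 ligands under the label WT, at 22.2 normalised reads per kb, and 6th under the label Runx1 KO, at 333.

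Ccl8 and Ccl12, neighbours on chromosome 11 that encode monocyte chemoattractants, also rose. Ccl8 had 18.8, 70.6 and 8.63 normalised reads under the label WT and 199, 202 and 167 under the label Runx1 KO. The 3 libraries labelled Runx1 KO agreed closely, while WT replicate 2 stood above the other WT libraries, and the log2 change was 2.99 (SE 0.66, limma adjusted p 0.0205). The call was lost without WT replicate 1 (0.0539), Runx1 KO replicate 2 (0.0741) or Runx1 KO replicate 3 (0.0589). Ccl12 had 3.96, 5.05 and 7.67 normalised reads against 27.2, 36.7 and 24.9, with no overlap, a 5.32-fold higher mean and a log2 change of 2.24 (SE 0.32, limma adjusted p 0.00548). In the same cluster, whose 4 members span 81.2 kb, Ccl7 and Ccl2 did not pass. Ccl7 had 10.9, 11.1 and 5.76 normalised reads against 15.7, 17.8 and 14.9 (log2 change 0.79, SE 0.33, adjusted p 0.125), and Ccl2, the main ligand of CCR2, had 204, 91.8 and 66.2 against 175, 134 and 102 with overlapping groups (log2 change 0.31, SE 0.41, adjusted p 0.618). Macrophages are a known source of Ccl8, Ccl12 and Ccl24. Of the 9 tissue macrophage markers 0 rose and 2 fell, and their summed level was 9716 to 15385 normalised reads under the label WT and 7613 to 10943 under the label Runx1 KO. Whether macrophages had a part in the rises of Ccl8, Ccl12 and Ccl24 was not tested.

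Cxcl9, Cxcl10 and Cxcl11 encode the interferon-inducible ligands of CXCR3 and lie side by side within 44.1 kb of chromosome 5. Cxcl10 had 180.0, 177 and 130.5 normalised reads under the label WT and 447, 415 and 238 under the label Runx1 KO. The groups did not overlap and the mean was 2.26-fold higher, with a log2 change of 1.13 (SE 0.26, limma adjusted p 0.0242). The call was lost without WT replicate 2 (0.0568), WT replicate 3 (0.0689), Runx1 KO replicate 1 (0.0501) or Runx1 KO replicate 2 (0.0939). Cxcl10 overlaps Art3 on the opposite strand, whose means were 14.5 and 8.67 normalised reads (log2 change -0.75, SE 0.48, adjusted p 0.296). Cxcl9 had 215, 773 and 205 normalised reads against 688, 1132 and 593, and WT replicate 2 lay above 2 of the libraries labelled Runx1 KO (log2 change 1.25, SE 0.52, adjusted p 0.126). Without WT replicate 2 Cxcl9 passed. Cxcl11, annotated as a polymorphic pseudogene in GENCODE M21, was not tested. It held 2 recovered reads over the 3 libraries labelled WT and 81 over those labelled Runx1 KO, a ratio of 41.5 with an exact binomial 95% interval of 11.1 to 349 that covers counting error only. By library Cxcl11 had 0.989, 1.01 and 0 normalised reads under the label WT and 24.1, 48.6 and 8.95 under the label Runx1 KO, and with no filter on low values it passed (limma adjusted p 0.00793).

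The promoter windows of Cxcl10 and Cxcl9, printed to compare these neighbours, differed in which of the searched letters they held. Other spellings of the motifs were not searched. In Cxcl10 the capitals mark, from the 5′ end, the interferon-stimulated response element, the NF-kB motif at 2 places and AGATAA, none overlapping another, and in Cxcl9 they mark TGTGGT. The interferon-stimulated response element was in 2.98%, the NF-kB motif in 4.65% and AGATAA in 9.99% of all promoter windows, against 2, 7 and 7 of the 39 member windows, and the windows with the NF-kB motif included those of Cxcl1, Cxcl2 and Cxcl3.
Cxcl10, chr5:92348890-92349139, minus strand: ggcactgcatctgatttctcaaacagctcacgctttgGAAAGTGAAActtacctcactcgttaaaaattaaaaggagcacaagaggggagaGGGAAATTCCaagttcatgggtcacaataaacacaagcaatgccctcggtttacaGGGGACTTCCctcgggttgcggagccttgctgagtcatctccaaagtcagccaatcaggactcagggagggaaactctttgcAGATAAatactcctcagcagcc
Cxcl9, chr5:92328080-92328329, minus strand: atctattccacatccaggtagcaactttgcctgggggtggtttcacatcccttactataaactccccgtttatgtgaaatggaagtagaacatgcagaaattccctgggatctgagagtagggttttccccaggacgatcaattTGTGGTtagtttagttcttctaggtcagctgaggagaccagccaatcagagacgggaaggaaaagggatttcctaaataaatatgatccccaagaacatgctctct
No factor's binding was measured in these windows.

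Cxcl12 (ENSMUSG00000061353, chromosome 6, 117168535 to 117181367, plus strand), the marrow retention ligand of CXCR4, was the one tested ligand that fell. It had 184, 506 and 318 normalised reads in WT replicates 1 to 3 and 64.9, 31.7 and 28.8 in Runx1 KO replicates 1 to 3. The lowest WT library held more than any library labelled Runx1 KO, and the mean was 8.04-fold lower (means 336 and 41.8, n = 3), with a log2 change of -2.95 (SE 0.43, limma adjusted p 0.00577). Cxcl12 and its receptor gene Cxcr4 thus both fell, and each kept its call in all 6 fits that left out a library, at an adjusted p of at most 0.0292 and 0.041. Per kilobase of exon, Cxcl12 stood at 41.1 normalised reads per kb under the label WT and 5.11 under the label Runx1 KO, against 3771 and 1488 for Cxcr4. Stromal cells are the known main source of Cxcl12 in marrow. Of the 7 listed markers of stroma and endothelium 6 were tested. Col1a1, Col1a2 and Pdgfrb fell, and the endothelial markers Kdr and Emcn rose. Cdh5, also an endothelial marker, lay lower in every library labelled Runx1 KO without passing (log2 change -0.83, SE 0.28, limma adjusted p 0.0765). The summed level was 969 to 1126 normalised reads under the label WT and 707 to 917 under the label Runx1 KO. Lepr, which marks the stromal cells richest in Cxcl12, was under the filter with at most 30.3 normalised reads in a library. The part of stromal cells in the fall of Cxcl12 was not tested.

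Ccl9 and Ccl25 rose by small amounts. Ccl9, a myeloid ligand of CCR1, was among the 3 highest ligands per kilobase in both groups and had 3481, 3011 and 3642 normalised reads under the label WT and 5398, 3986 and 4373 under the label Runx1 KO. The groups did not overlap, and the log2 change was 0.43 (SE 0.12, limma adjusted p 0.0472). It passed in none of the 6 fits with a library left out, with adjusted p values from 0.0551 to 0.13. Its receptor gene Ccr1 fell in the same comparison. Ccl25, the ligand of CCR9, had 98.9, 77.7 and 94.0 normalised reads against 138, 128 and 140.2 (log2 change 0.59, SE 0.15, adjusted p 0.0363), and passed only without WT replicate 1 (0.0498) among those 6 fits, with adjusted p values up to 0.117. Ccl25 overlaps Elavl1 on the opposite strand, whose own log2 change was -0.03 (SE 0.08, adjusted p 0.786), and whether counting used the strand is not stated in the sources used here.

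**Figure D3:**
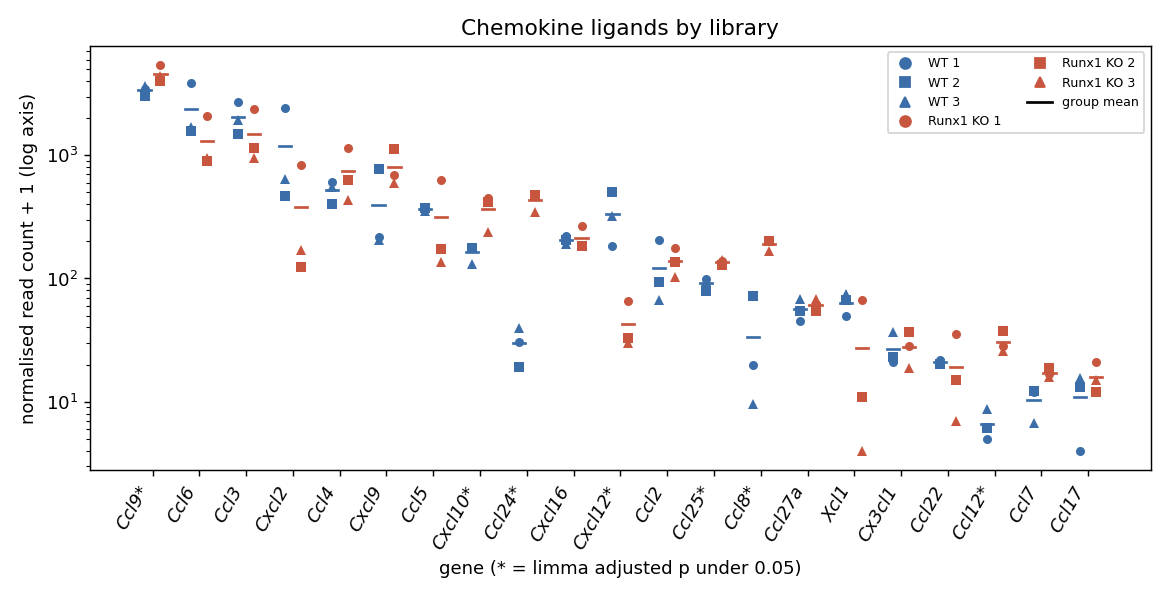
Normalised read count + 1 (y axis, log scale) of the 21 tested ligands in each library, with blue for libraries labelled WT, red for those labelled Runx1 KO, symbols for replicates 1 to 3 and short lines for group means. Asterisks mark the 7 ligands past the threshold, and Ccl24 shows the widest gap upwards and Cxcl12 the widest gap downwards among them.

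The abundant inflammatory ligands did not pass with all 6 libraries compared by group alone. Ccl3, the ligand with the highest level per kilobase in both groups (2676 and 1947 normalised reads per kb), had 2729, 1497 and 1923 normalised reads under the label WT and 2377, 1141 and 957 under the label Runx1 KO (log2 change -0.53, SE 0.36, limma adjusted p 0.322). Its neighbour Ccl4 had 612, 399.6 and 554 against 1151, 632 and 434 (log2 change 0.41, SE 0.34, adjusted p 0.43). In both genes the first replicate was the highest of its group, and the groups overlapped. Ccl6, a myeloid ligand in the same cluster, had 3896, 1563 and 1695 normalised reads against 2092, 903 and 949 (log2 change -0.84, SE 0.44, adjusted p 0.203). Without both libraries numbered 1, Ccl3 (limma adjusted p 0.0189) and Ccl6 (0.00192) passed as lower, and Ccl4 (0.652) did not pass. With the replicate number as a block in limma, Ccl6 passed as lower (0.000908), and Ccl3 (0.0554) and Ccl4 (0.27) did not. The cluster held 5 members within 138.9 kb, in the order Ccl5, Ccl9, Ccl6, Ccl3 and Ccl4, of which Ccl9 alone passed.

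Ccl5, a ligand made by T cells and NK cells, had 369, 375 and 351 normalised reads under the label WT and 629.7, 171 and 135 under the label Runx1 KO, so that Runx1 KO replicate 1 was the highest library and the other 2 of its group the lowest (log2 change -0.58, SE 0.52, limma adjusted p 0.461). Xcl1, another ligand of T and NK cells, had 48.5, 65.6 and 73.9 against 65.9, 9.91 and 2.98 (log2 change -2.14, SE 0.92, adjusted p 0.139). Both passed as lower without Runx1 KO replicate 1, the library in which T-cell markers were highest of its group. Of the 6 NK-cell markers 1 fell and 0 rose. Whether T cells or NK cells had a part in the values of Ccl5 and Xcl1 was not tested.

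Cxcl2, a neutrophil attractant that binds CXCR2, had 2425, 471 and 646 normalised reads against 842, 122 and 169 (log2 change -1.80, SE 0.85, limma adjusted p 0.167). As with its receptor gene Cxcr2, the first replicate was by far the highest of each group. Cxcl2 and Cxcr2 passed as lower without both libraries numbered 1 (limma adjusted p 0.00339 and 0.00439). They also passed as lower with the replicate number as a block in limma (0.000712 and 0.0104). Cxcl16, the ligand of CXCR6, had 219, 205 and 188 against 266, 184 and 181 (log2 change 0.02, SE 0.18, adjusted p 0.933). The other tested ligands were Ccl17, Ccl22, Ccl27a and Cx3cl1, with group means from 9.82 to 60.3 normalised reads, overlapping groups and adjusted p values of 0.373, 0.597, 0.662 and 0.93. Ccl27a has near-identical copies, so its value is uncertain. The untested ligands beside Cxcl11 were Ccl28, Cxcl1, Cxcl3 and Cxcl14, with at most 12 recovered reads in a library, and Cxcl14 had 4.95, 9.08 and 7.67 normalised reads against 2.09, 1.98 and 0.995.

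The choice of members used symbols and not positions, but members of the same symbol series often lie side by side, so position was not independent of that choice. Grouping members less than 500 kb apart gave 8 clusters with 28 of the 46 members. On chromosome 9, Ccr9, Cxcr6, Ccr1, Ccr3 and Ccr2 lie in the same cluster. Of these 5 receptors Ccr1 alone passed, and all 5 had a negative log2 change, from -0.52 for Ccr2 to -2.59 for Ccr9. Among the 16 tested receptors on all chromosomes, 14 had a negative log2 change. On chromosome 5, Cxcl3, Cxcl1 and Cxcl2 lie within 119.8 kb, and Cxcl2, the one tested, did not pass, while Cxcl10 did in the cluster of Cxcl9, Cxcl10 and Cxcl11. On chromosome 11, 2 of 4 members rose in the cluster of Ccl2 and 1 of 5 in that of Ccl5, against 10.6% of all tested genes. Over the 6 fits that left out a library, Ccl12 kept its call in 6, Ccl8 in 3 and Ccl9 in 0. The cluster counts are of a few neighbouring genes, and whether clusters differ from each other was not tested.

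A mixed list of 64 related genes was examined, of which 62 were listed and 60 tested. It held the machinery that the receptors signal through and genes that modify receptors or switch them off. Proteases that can cut chemokines, and ligands and receptors outside the naming rule, were also on it. Of those tested 30 passed, 6 higher and 24 lower, with a median log2 change of -0.32. This is 50% of the list against 21.9% of all tested genes, and without Runx1 KO replicate 2 the count was 13 and without Runx1 KO replicate 3 it was 14. Of the 14 G protein and kinase genes 8 fell and 1 rose, among them Gnb2 (log2 change -0.37, SE 0.06), Mapk3 (-0.75, SE 0.12) and Pik3r5, a regulatory subunit of the lipid kinase activated by G proteins (-0.71, SE 0.12). Genes of cell migration that fell included Rac2 (-0.66, SE 0.10), a GTPase needed for leukocyte migration, Coro1a (-0.76, SE 0.12), Cdc42 (-0.37, SE 0.07) and Tln1 (-0.33, SE 0.06). Their limma adjusted p values ran from 0.00685 for Rac2 to 0.0124 for Tln1. The single riser of the kinase list was the phospholipase gene Plcb3 (0.26, SE 0.07, adjusted p 0.0352), chosen for mention after its value was seen.

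Genes that switch receptors off moved in both directions. Of 14 tested, 2 rose and 3 fell. The arrestin gene Arrb1 had 5478, 5557 and 5821 normalised reads under the label WT and 8020.1, 8546 and 8768 under the label Runx1 KO (log2 change 0.59, SE 0.06, limma adjusted p 0.00198). Arrb2, its relative, had 5495, 5082 and 4593 against 3145, 2931 and 2555 (log2 change -0.81, SE 0.10, adjusted p 0.00328). The groups did not overlap in either arrestin gene, and the values within each group were close. Grk6, a kinase that phosphorylates chemokine receptors, fell by a log2 change of -0.57 (SE 0.08, adjusted p 0.00429). The genes for tyrosine sulfation, a modification that strengthens ligand binding, both rose, and Tpst1 went from 362, 416 and 452 to 698, 781 and 724 normalised reads (log2 change 0.84, SE 0.11, adjusted p 0.00358).

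Related genes outside the naming rule of the members included platelet chemokines. Pf4 had 428, 448 and 477 normalised reads under the label WT and 391, 238 and 153 under the label Runx1 KO (log2 change -0.89, SE 0.31, limma adjusted p 0.0782). Ppbp had 33.6, 19.2 and 19.2 against 120.3, 34.7 and 61.7 (log2 change 1.42, SE 0.47, adjusted p 0.0685). Both genes, named after their values were seen, kept their groups apart without passing, and in opposite directions, while 6 of 6 megakaryocyte markers rose, with summed levels of 2813 to 3505 and 4817 to 6796 normalised reads. Of the 5 tested receptors outside the rule, Gpr35 fell (log2 change -0.87, SE 0.15, adjusted p 0.00937). Cklf, a ligand under another name, fell too (-0.62, SE 0.13, adjusted p 0.0155), also named after its value was seen. Among 7 proteases that can cut chemokines, 2 fell and 1 rose.

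**Figure D4:**
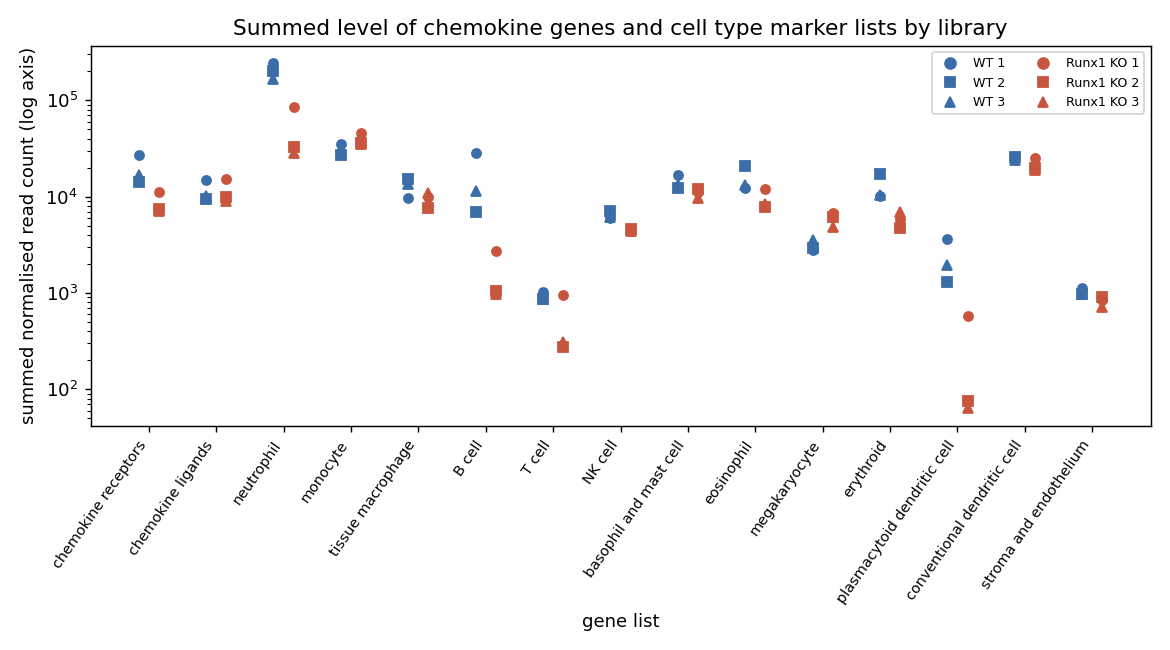
Summed normalised read count (y axis, log scale) of the 20 receptors, the 26 ligands and the cell type marker lists (x axis) in each library, blue for WT and red for Runx1 KO, with symbols for replicates 1 to 3. Receptor sums were 14248 to 27196 under the label WT and 7033 to 11029.6 under the label Runx1 KO, while ligand sums overlapped at 9452 to 14846 and 8988 to 15238.

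Summed over all members of a class, and so weighted by the most abundant genes, the 20 receptors gave 27196, 14248 and 16901 normalised reads in WT replicates 1 to 3 and 11029.6, 7465 and 7033 in Runx1 KO replicates 1 to 3. The groups did not overlap. The 26 ligands gave 14846, 9452 and 10105 against 15238, 9905 and 8988, and here replicate 1 of each group was the highest and the groups overlapped. In the plot of summed levels the B-cell, neutrophil, plasmacytoid dendritic cell, NK-cell and erythroid lists were lower in every library labelled Runx1 KO. So were the basophil and mast cell list, the eosinophil list and the stroma and endothelium list. The megakaryocyte list was higher in every library labelled Runx1 KO. The T-cell, monocyte and tissue macrophage lists overlapped between the groups. The conventional dendritic cell list overlapped as well, at 24022 to 25720.3 and 18708 to 25398 normalised reads, with 0 of its 6 markers past the threshold.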

How the data were processed

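RNA from c-Kit-positive mouse bone marrow cells was sequenced as poly-A-selected, stranded libraries, 3 of each group. Per the submitters' processing notes, HISAT2, HTSeq 0.9.1 and the builds mm10 and GRCm38 were used; their settings are not given in the sources used here. The deposited values are a signal, taken here as reads per gene scaled by 1 factor per library, since 100% were whole multiples, within 0.001, of the smallest positive value of their library. These multiples are the recovered reads, 23297526 to 26793380 per library, and the deposited values are called normalised reads. The lowest total of a listed gene was 10 recovered reads.

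Symbols were found for 20077 of 20097 identifiers; positions and exon lengths come from GENCODE M21 (GRCm38). Genes passing filterByExpr of edgeR 4.0.16 on the deposited values (minimum count 10, total 15) were tested with limma 3.58.1 (R 4.3.3, lmFit, eBayes with a mean trend) on log2(value + 1), by group alone, two-sided, with Benjamini-Hochberg adjustment over 15410 genes and a threshold of 0.05. The log2(value + 1) scale understates changes of weak genes. An exact permutation test of 3 against 3 libraries cannot fall below 0.1 and was not used. The fit was tested on simulated data.

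Members passing the threshold or reaching a mean of 100 normalised reads in a group were described in full, except 1 receptor that, like 1 marker gene and 1 group of related genes, is not reported here; of related genes, the 12 with the smallest adjusted p were named. The members and lists were chosen with earlier results of these data known. Alternatives were edgeR and DESeq2 1.42.0 on recovered reads, other scalings, pseudocounts and filters, the replicate number as a block, and leaving out libraries.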

Additional observations from a re-analysis of the deposited data

How the results depend on the processing

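With all libraries kept, 13 receptor and ligand calls became 12 in edgeR, DESeq2, limma with library totals and a pseudocount of 0.5, each without Ackr1. Of 362 values of single members over all settings that kept every library, the replicate block among them, 346 kept their side of the threshold, 6 lost it and 10 gained it, each of the 10 with the replicate block. The count of ligands that fell was 2 with no filter on low values, against 1. The titles number the libraries 1 to 3 but do not say whether these numbers pair them. Same-numbered deviations from the group means correlated at 0.287, 0.129 and -0.01 over the tested genes. WT replicate 2 correlated best with Runx1 KO replicate 3, at 0.235. With 3 libraries in a group these correlations cannot decide whether the libraries were paired. With the replicate block, limma gave 3843 genes (24.9%), 10 ligands (7 higher, 3 lower) and 8 receptors, all lower, and edgeR gave 3685 genes (23.9%), 9 ligands (6 higher, 3 lower) and 8 receptors; Ccl25 was lost in edgeR, and Ccl6, Ccr3, Cxcl2, Cxcl9 and Cxcr2 were gained in both. Leaving out a library in turn, which lowers the number in its group, gave 1349 to 3551 genes (627 to 1627 higher, 722 to 1924 lower), 3 to 8 ligands (2 to 4 higher, 1 to 5 lower), 2 to 11 receptors (0 to 1 higher, 2 to 11 lower) and 13 to 36 related genes (3 to 4 higher, 9 to 32 lower). Without both libraries numbered 1, 2 ligands rose and 6 fell, and 12 receptors passed, 1 higher and 11 lower; the cause was not tested. Reversals were limited to members that passed in no such fit: over the fits without a library, Cxcl16 ran from -0.15 to 0.12, Cx3cl1 from -0.17 to 0.31, Ccl22 from -1.05 to 0.13 and Ccl2 from -0.03 to 0.77 on the log2 scale. Without both libraries numbered 1, Cxcl16 was -0.10, Cx3cl1 -0.14, Ccl17 -0.09 and Ccl27a -0.0049. With library totals the median log2 change of all tested genes was 0.078, against -0.004 in the reported fit. The filter on low values left 9 members untested.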
